A study of Mus musculus with 12 samples.

Results

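The genes described here are 9 surface and secreted markers of the monocyte lineage, chosen by name and read from the RNA counts of KD and KI leukaemias: Cd14, Csf1r, Ccr2, Fcgr1, Adgre1, Ly6c2, Cx3cr1, Ms4a6c and F13a1. They are 9 of the 41214 genes counted. All 9 passed the filter on low counts, which left 13822 genes to test. In the comparison of genotypes, 5 of the 9 (Cd14, Csf1r, Adgre1, Ms4a6c and F13a1) had both KD values above both KI values, as did 14.5% of all genes tested, and the other 4 overlapped between the genotypes. The reverse, both KD values below both KI values, held for 0 of the 9 and for 23.5% of all genes. No member passed the test across all genes.

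Monocytes form in the bone marrow from myeloid progenitors that can also give granulocytes. The factors PU.1, IRF8 and KLF4 favour the monocyte branch, whereas Gfi1, a zinc finger repressor, is known for favouring the granulocyte branch and for holding down monocyte genes. Classical mouse monocytes carry Ly6C and CCR2 and leave the marrow along CCR2 ligands. Patrolling monocytes carry more CX3CR1 and less Ly6C and stay in the vessels. CSF1R, the receptor for CSF1 and IL-34, is carried by both kinds.

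All libraries came from leukaemic cells of C57/BL6 mice with the transgene NUP98-HOXD13. It joins parts of a nucleoporin and a homeobox protein, and the commonly used line, which expresses it across the blood system, develops myelodysplasia and leukaemia. The KD group had 2 mice with 2 altered Gfi1 alleles (KD/KD, homozygous in the labels of the RNA samples). The KI group had 2 mice with 1 altered and 1 wild-type allele (KI/wt, heterozygous in the same labels), so neither group is free of an engineered Gfi1 allele. In published lines with these allele names human GFI1 replaces the mouse coding region, so mouse Gfi1 counts do not give the total dose. Mouse Gfi1 had 102 and 13 counts in the KD libraries, against 156 and 750 in the KI libraries, and a log2 fold change of -3.89 ± 0.95 (SE, adjusted p = 0.5185 in edgeR and 0.0012 in DESeq2). In edgeR the Gfi1 value was -2.96 without KI replicate 2 and -5.73 without KD replicate 1. The labels used here state no age, source tissue or sort. Each mouse gave 1 RNA library.

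Counts assigned to genes were 11934542 and 10263454 in the KD libraries, against 4581593 and 10869534 in the KI libraries. A count of 3 corresponds to between 0.212 and 0.696 CPM (counts scaled to a common library size with TMM factors), so each member lay above that floor in each library. The 3 loci holding over 1% of a library each, all predicted genes, took 19.4% and 21.2% of the KD counts, against 39.0% and 44.4% of the KI counts. Odorant, pheromone and taste receptor genes, silent in blood, summed to 147 and 143 CPM in KD, against 979 and 237 CPM in KI, so KI replicate 1 stands apart as the shallowest library with the most counts on silent genes. Xist had 6 and 9795 counts in KD and 56 and 6613 in KI, while Tsix, which runs across it on the opposite strand, had 4 and 10 in KD and 4 and 10 in KI. Reads of Xist were thus counted to Xist and not to its antisense partner. In each genotype Xist was far higher in replicate 2 than in replicate 1, and the part of sex in the members' values was not tested.

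Promoter windows from RefSeq (GRCm38.p6, 250 bases before to 50 after the start) were matched by symbol for 6 of the 9 members: Ccr2, Fcgr1, Ly6c2, Cx3cr1, Ms4a6c and F13a1. Of these, 4 are shown, since the results turn on them: F13a1 and Ms4a6c, which separated the genotypes, and Ly6c2 and Cx3cr1, which mark the classical and the patrolling monocyte and did not. Capitals mark GAGGAAGT, a word bound by PU.1, read on both strands.
F13a1, chr13:37049164-37049463, minus strand: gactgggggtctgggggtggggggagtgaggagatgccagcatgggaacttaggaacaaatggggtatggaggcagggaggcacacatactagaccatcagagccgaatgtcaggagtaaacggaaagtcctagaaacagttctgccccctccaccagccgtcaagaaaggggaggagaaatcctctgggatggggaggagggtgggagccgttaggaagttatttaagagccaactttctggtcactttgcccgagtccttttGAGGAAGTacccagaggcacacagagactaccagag
Ly6c2, chr15:75111888-75112187, minus strand: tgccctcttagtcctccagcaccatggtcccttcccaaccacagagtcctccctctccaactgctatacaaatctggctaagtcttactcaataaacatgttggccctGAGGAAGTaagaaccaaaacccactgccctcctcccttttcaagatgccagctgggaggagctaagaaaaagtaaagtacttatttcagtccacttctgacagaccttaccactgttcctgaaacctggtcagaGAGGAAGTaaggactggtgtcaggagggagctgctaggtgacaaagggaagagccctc
Ms4a6c, chr19:11469118-11469417, plus strand: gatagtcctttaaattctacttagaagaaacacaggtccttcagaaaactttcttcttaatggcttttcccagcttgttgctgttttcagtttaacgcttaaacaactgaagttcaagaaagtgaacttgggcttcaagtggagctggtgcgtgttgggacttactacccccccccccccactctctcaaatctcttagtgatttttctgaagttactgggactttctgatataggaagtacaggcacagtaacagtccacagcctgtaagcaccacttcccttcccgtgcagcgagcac
Cx3cr1, chr9:120068247-120068546, minus strand: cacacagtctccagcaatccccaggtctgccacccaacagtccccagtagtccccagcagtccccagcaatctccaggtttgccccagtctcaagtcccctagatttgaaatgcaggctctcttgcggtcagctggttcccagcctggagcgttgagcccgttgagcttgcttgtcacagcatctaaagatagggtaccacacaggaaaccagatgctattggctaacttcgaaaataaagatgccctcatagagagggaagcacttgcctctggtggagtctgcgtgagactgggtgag
The PU.1 word stood at -142 and -8 from the start base of Ly6c2, and at 14 from that of the F13a1 window, counting the first base of the word and the start base as 0. It was not in the windows of Cx3cr1, Ms4a6c, Ccr2 and Fcgr1. Of all 32851 promoter windows, 3.20% hold it. The C/EBP word TTGCNNAA (10.8% of all windows), a composite ETS and IRF word (GGAA and GAAA with 2 bases between them, 2.72%, sharing the GGAA core with the PU.1 word) and the Gfi1 word AATCACNGC (0.919%) were in no window of these 6 genes on either strand. The KLF word GGGNGTGG (17.6%) was in the F13a1 window at -238, the one window of the 6 genes that held it. A second F13a1 window, further upstream, held none of these words, and the second Ly6c2 window is a shifted copy of the first.

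Cd14 encodes the co-receptor that hands bacterial lipopolysaccharide to TLR4 (ENSMUSG00000051439, chromosome 18, 36725064 to 36726815 in GRCm38, as all positions here). Its level was 26.3 and 27.6 CPM in the KD mice, against 8.35 and 11.2 CPM in the KI mice, from 371 and 320 counts in KD and 36 and 94 in KI. Both KD libraries lay far above both KI libraries, and the lower KD value was 2.35 times the higher KI value. The means were 26.9 ± 0.986 CPM in KD and 9.75 ± 1.98 CPM in KI (SD, n = 2 each). The fitted log2 fold change, KD over KI, was 1.46 ± 0.36 (SE). The quasi-likelihood test of edgeR gave it an adjusted p = 0.5185 (Benjamini-Hochberg over all genes tested). Cd14 was the member with the lowest p and ranked at 138 of the 13822 genes. It kept a value between 1.41 and 1.78 when each library was left out in turn, with 1.78 without KI replicate 2. In that fit 1 KI mouse stands alone and is assumed to vary like the KD mice.

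Csf1r, the receptor tyrosine kinase for CSF1 and IL-34 (ENSMUSG00000024621, chromosome 18, 61105572 to 61131139), had 504.9 and 289.9 CPM in the KD mice, against 254.0 and 98.8 CPM in the KI mice. The genotypes did not overlap, but the lower KD value was only 1.14 times the higher KI value. The log2 fold change was 1.17 ± 0.55 (SE) with adjusted p = 0.5607 in edgeR. It was 2.16 without KI replicate 1 and 0.76 without KI replicate 2, so its size rests on which KI mouse is kept.

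**Figure D1:**
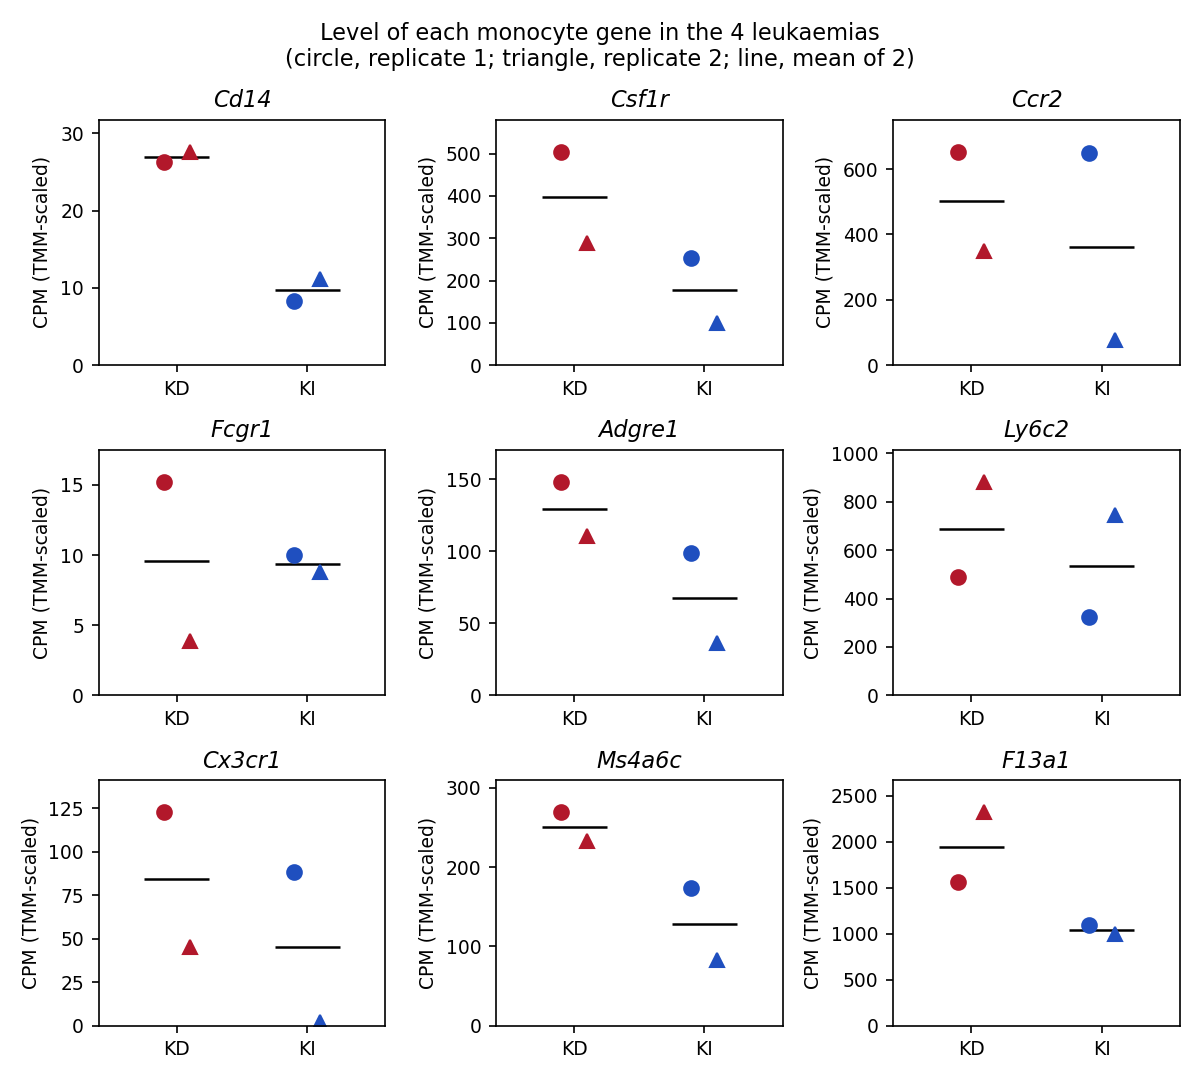
Level of each of the 9 monocyte genes in CPM (vertical axes from 0) in the KD and KI leukaemias, with a circle for replicate 1, a triangle for replicate 2 and a line at the mean of 2 mice. The KD points lie above the KI points for Cd14, Csf1r, Adgre1, Ms4a6c and F13a1, and the genotypes overlap for Ccr2, Fcgr1, Ly6c2 and Cx3cr1.

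Fcgr1, the high-affinity receptor for IgG also called CD64 (ENSMUSG00000015947, chromosome 3, 96282909 to 96293969), had 15.2 and 3.89 CPM in the KD mice, against 9.97 and 8.78 CPM in the KI mice. The KI values lay between the KD values. Its log2 fold change of 0.03 ± 0.71 (SE, adjusted p = 0.9997 in edgeR) turned to -1.16 without KD replicate 1 and to -0.05 with upper quartile scaling. The counts behind it were 215 and 45 in KD and 43 and 74 in KI.

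The chemokine receptors differed more between mice than between genotypes. Ccr2, the receptor for CCL2 that lets classical monocytes leave the marrow (ENSMUSG00000049103, chromosome 9, 124101918 to 124109140), had 653.6 and 349.8 CPM in the KD mice, against 650.1 and 75.5 CPM in the KI mice. KI replicate 1 was as high as KD replicate 1, and KI replicate 2 was the lowest by far. Cx3cr1, the receptor for fractalkine (ENSMUSG00000052336, chromosome 9, 120048683 to 120068296), had 122.8 and 45.4 CPM in KD, against 88.6 and 2.37 CPM in KI. The KI mice differed 37.3-fold in Cx3cr1 and 8.62-fold in Ccr2. Over the KD mice the same ratios were 2.70 and 1.87. The log2 fold changes were 0.90 ± 1.38 for Cx3cr1 and 0.47 ± 0.95 for Ccr2 (SE, adjusted p = 0.9535 and 0.9714 in edgeR). Without KI replicate 1 they were 5.31 and 2.89, and without KI replicate 2 they were 0.05 and -0.26, so 1 library decides both.

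Among the surface antigens, Adgre1 and Ms4a6c separated the genotypes and Ly6c2 did not. Adgre1 encodes F4/80, an adhesion receptor used to mark mouse macrophages and monocytes (ENSMUSG00000004730, chromosome 17, 57358581 to 57483529). It had 148.1 and 110.8 CPM in the KD mice, against 99.0 and 36.2 CPM in the KI mice, with a log2 fold change of 0.94 ± 0.51 (SE, adjusted p = 0.6227 in edgeR). The value was 1.99 (adjusted p = 0.0515) without KI replicate 1 and 0.49 without KI replicate 2. Ms4a6c, a four-span membrane protein of the MS4A family (ENSMUSG00000079419, chromosome 19, 11469353 to 11487182), had 269.4 and 232.7 CPM in KD, against 174.2 and 82.5 CPM in KI. The KD mice differed by 1.16-fold and the KI mice by 2.11-fold. Its log2 fold change was 0.97 ± 0.42 (SE, adjusted p = 0.5343 in edgeR), or 1.75 without KI replicate 1 and 0.63 without KI replicate 2.

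Ly6c2, which gives the Ly6C antigen of classical monocytes (ENSMUSG00000022584, chromosome 15, 75108161 to 75112066), had 488.6 and 881.5 CPM in the KD mice, against 324.5 and 743.5 CPM in the KI mice. In each genotype replicate 2 was the higher mouse, and the KI value of 743.5 CPM exceeded the KD value of 488.6 CPM. The log2 fold change was 0.36 ± 0.53 (SE, adjusted p = 0.951 in edgeR), with -0.10 without KD replicate 2, 0.0003 without KI replicate 1 and 1.16 without KI replicate 2. Its close paralogue Ly6c1 had 8 and 18 counts in KD and 7 and 11 in KI, against 6905 and 10203 for Ly6c2 in KD and 1399 and 6267 in KI. Reads that align to more than one place were counted for no gene, so both values may be too low.

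F13a1, the A subunit of clotting factor XIII and the secreted member of the set (ENSMUSG00000039109, chromosome 13, 36867178 to 37050244), had 1567 and 2322 CPM in the KD mice, against 1094 and 997.5 CPM in the KI mice. Counts were the deepest of the set, at 22147 and 26872 in KD and 4716 and 8408 in KI. The KI mice differed by 1.10-fold and the lower KD value was 1.43 times the higher KI value. The log2 fold change was 0.89 ± 0.40 (SE) with adjusted p = 0.5409 in edgeR, and lay between 0.66 and 1.26 when each library was left out.

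As a list, the 9 members all had positive log2 fold changes, from 0.03 to 1.46, with a median of 0.90, while the median of all 13822 genes tested was -0.06 and 44.5% of them were positive. Both KD libraries lay above both KI libraries for 5 of 9 members, against a background of 14.5% of all genes tested, and below them for 0 of 9, against 23.5%. The members were chosen with results of these data known, so these shares are descriptions. In edgeR 0 members were called at adjusted p under 0.05, where 0% of all genes were called in either direction, and 1 (Cd14) had an unadjusted p under 0.05 and was higher in KD, against 1.29% of all genes, while 0 were lower at that level, against 8.34%. DESeq2 gave the members adjusted p of 0.0895 or more and called 0 of them, against 0.0392% of genes called higher and 1.09% called lower. In DESeq2 4 members had an unadjusted p under 0.05: Cd14 (0.0015), F13a1 (0.0079), Csf1r (0.0261) and Ms4a6c (0.0311). All 4 were higher in KD, where 2.02% of all genes reached that level, and 0 were lower, against 9.43%. An exact permutation of 2 against 2 mice cannot give a two-sided p under 0.333. In bulk RNA, more cells of a type and more RNA per cell cannot be told apart.

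**Figure D2:**
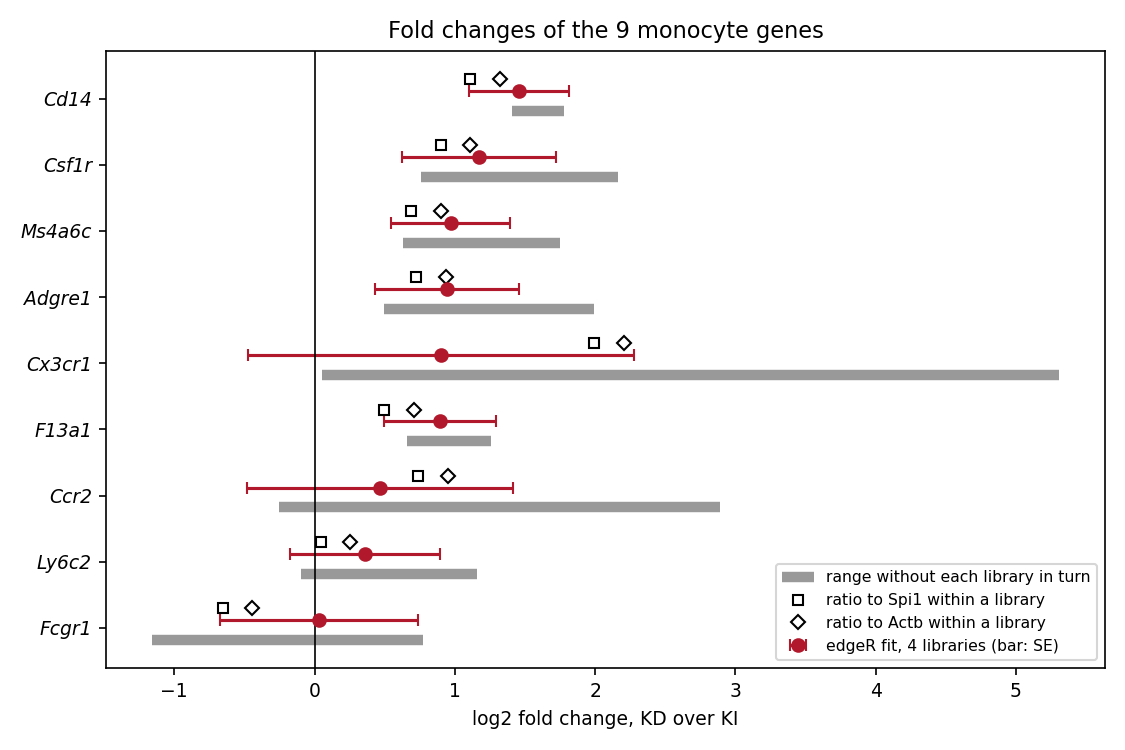
Log2 fold change, KD over KI, of the 9 monocyte genes: filled circles with SE bars from the edgeR fit over 4 libraries, grey bars for the range when each library is left out, and open symbols for the difference of mean log2 ratios to Spi1 or Actb counts of the same library. Cd14, F13a1, Ms4a6c, Adgre1, Csf1r and Cx3cr1 keep their symbols and grey bars above 0. The grey bar of Cx3cr1 runs from 0.05 to 5.31, while its SE bar (0.90 ± 1.38) crosses 0. Grey bars of Ccr2 (from -0.26 to 2.89), Ly6c2 and Fcgr1 cross 0, as do their SE bars.

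Mice of 1 genotype differed widely for several members. The highest library was KD replicate 1 for 6 members and KD replicate 2 for 3, and never a KI library. The lowest was KI replicate 2 for 6 members, KI replicate 1 for 2 (Cd14 and Ly6c2) and KD replicate 2 for 1 (Fcgr1). For 7 of 9 members the KI mice differed from each other by a larger fold than the genotype means did, the exceptions being Cd14 and F13a1. Between the KD mice 7 members lay within 2-fold, against 3 members between the KI mice.

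The profiles over the 4 libraries fell close together for Csf1r, Adgre1 and Ms4a6c. After centring log2(CPM + 0.5) per gene, the root mean square distance was 0.149 between Adgre1 and Ms4a6c, 0.165 between Csf1r and Adgre1, and 0.253 between Csf1r and Ms4a6c. Cd14 and F13a1 formed the next pair at 0.381. The most distant pair was Ly6c2 and Cx3cr1, at 2.49. These distances rest on 4 libraries that share one scaling and are descriptions.

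**Figure D3:**
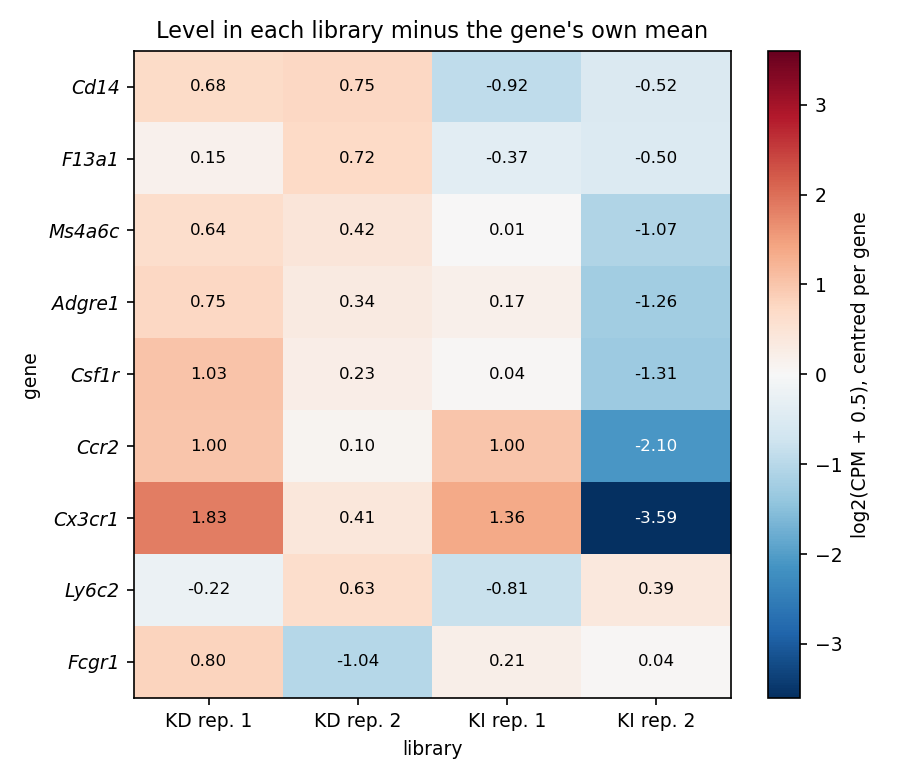
Level of each member (rows) in each library (columns) as log2(CPM + 0.5) minus the gene's own mean over 4 libraries, with red above and blue below that mean. Both KD columns are positive and both KI columns negative for Cd14 and F13a1, while Ccr2 and Cx3cr1 are positive in KI replicate 1 and drop to -2.10 and -3.59 in KI replicate 2.

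Ratios of counts within a library need no scaling between libraries. The number of Ly6c2 counts per Cx3cr1 count was 3.98 and 19.4 in the KD libraries, against 3.66 and 313 in the KI libraries, so the balance of classical over patrolling marker was alike in the replicate 1 mice of both genotypes and highest in KI replicate 2. Csf1r per Adgre1 stayed narrow at 3.41 and 2.62 in KD, against 2.56 and 2.73 in KI. Relative to Spi1, which encodes PU.1, the Cd14 counts were 0.148 and 0.174 in KD, against 0.0646 and 0.0855 in KI. The same ratio for F13a1 was 8.85 and 14.6 in KD, against 8.47 and 7.65 in KI, and for Ms4a6c 1.52 and 1.46 in KD, against 1.35 and 0.632 in KI. These 3 members separated the genotypes per Spi1 count, while Csf1r (2.85 and 1.82 in KD, against 1.97 and 0.758 in KI) and Adgre1 (0.836 and 0.696, against 0.767 and 0.278) overlapped. Per Actb count, the same 5 members separated as in CPM. Both ratios were added after the data were seen.

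The scaling moved the members and all genes together. The median member lay 0.97 above the median of all genes on the log2 scale with TMM, 0.96 with RLE, 0.94 with upper quartile factors, 0.93 with library size only and 1.02 with the 3 most abundant loci left out. Library size alone shifted the median of all genes to 0.37, from -0.06 with TMM, and the median of members to 1.30. Among genes whose unadjusted p was below 0.05, the share with a higher KD level was 13.4% with TMM, 20.4% with RLE, 77.2% with library size only and 25.0% with those loci left out. Csf1r and Adgre1 overlapped between genotypes with upper quartile factors or a filter of 5 CPM in 2 libraries, where the members that separated were Cd14, Ms4a6c and F13a1.

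Partners of the members were read from 11 lists of 89 genes, 79 of them tested, chosen like the members with earlier results known. Of the 79, 54 (68.4%, against 44.5% of all genes tested) had a positive log2 fold change. Both KD libraries lay higher for 24 of them and lower for 6, against 14.5% and 23.5% of all genes. None passed in edgeR over all genes. For the Cd14 pathway, 10 of 12 genes around the lipopolysaccharide receptor were positive and 6 lay higher in both KD libraries, with a median of 0.60. Ly86, which encodes MD-1, had 66.5 and 77.2 CPM in KD, against 37.6 and 32.0 CPM in KI (log2 1.05 ± 0.28, SE, adjusted p = 0.5185 in edgeR), and the adaptor Myd88 0.63 ± 0.27. Tlr4, the receptor that Cd14 serves, named after its values were seen, had 42.2 and 22.9 CPM in KD, against 37.3 and 2.61 CPM in KI. Its lowest value was in KI replicate 2, as for Cx3cr1. Its log2 fold change was 0.73 ± 1.08, or -0.08 without KI replicate 2 and 3.79 without KI replicate 1.

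Among ligands and adaptors of Csf1r, 5 of 7 tested genes were positive, with a median of 0.21. Tyrobp, which encodes the adaptor DAP12, had a log2 fold change of 0.59 ± 0.30, and Dok2, an inhibitory adaptor, -1.18 ± 0.47. Il34 had 1 and 1 counts in KD and 1 and 2 in KI, and was not tested. Ligands of the chemokine receptors were near the floor: Ccl8 had 0 counts in each library, and Ccl2 had 12 and 2 in KD and 1 and 1 in KI. Ccr1, a receptor for inflammatory chemokines, had a log2 fold change of -0.59 ± 0.32.

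The list of other Fc gamma receptors, their shared chain and the kinase Syk had a median of 0.24. Fcer1g, the shared signalling chain, had 0.60 ± 0.29, Fcgr3 0.32 ± 0.29 and Syk 0.24 ± 0.32, while Fcgr2b at 0.079 ± 0.29 and Fcgr4 at 0.0011 ± 0.55 lay at about 0. In the MS4A family 4 of 9 were positive. Beside Ms4a6c at 0.97 ± 0.42, its paralogue Ms4a6d had 1.18 ± 0.72 and was also higher in both KD libraries. Ms4a6b had 0.26 ± 0.78, or -0.39 without KI replicate 2 and -0.05 without KD replicate 1. These differences between paralogues were not tested. Ms4a1, the B cell gene for CD20, had -1.93 ± 1.16 on at most 20 counts, or -0.16 without KI replicate 1. In the LY6 family 1 of 5 tested genes was positive. Ly6e, a widely expressed member, had 376.1 and 476.1 CPM in KD, against 190.4 and 94.4 CPM in KI (1.58 ± 0.43, adjusted p = 0.5185 in edgeR and 0.0385 in DESeq2). Ly6g, the neutrophil antigen, had 2.62 and 0.432 CPM in KD, against 52.6 and 13.3 CPM in KI (-4.39 ± 1.06, adjusted p = 0.5185 in edgeR and 0.00099 in DESeq2). The paralogue Ly6c1 had -0.46 ± 0.90, or 0.20 without KD replicate 1.

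Among the relatives of Adgre1, Adgre5 had 0.10 ± 0.27 and Adgre4 0.99 ± 1.47, which turned to -0.60 without KD replicate 1. Of 5 tested clotting partners of F13a1 3 were positive. F10, the gene of factor X, had 160.1 and 205.1 CPM in KD, against 80.5 and 104.3 CPM in KI (0.98 ± 0.30, adjusted p = 0.5185 in edgeR), and Tfpi, an inhibitor of the tissue factor pathway, 1.06 and 1.38 CPM in KD, against 4.87 and 9.49 CPM in KI (-2.55 ± 0.70). F13b, the carrier subunit that pairs with the A subunit in plasma, had 3 and 0 counts in KD and 1 and 0 in KI.

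Other genes of classical monocytes were mostly positive, 11 of 14 with a median of 0.59, with Plac8 at 0.80 ± 0.29 and Cd68, a lysosomal protein, at 0.92 ± 0.56. Cd68 was 2.101 without KI replicate 1 and 0.42 without KI replicate 2. Fn1, fibronectin, named after its values were seen, had 1249 and 419.0 CPM in KD, against 836.8 and 3.80 CPM in KI. Its lowest library was KI replicate 2, as for Cx3cr1. Its log2 fold change of 0.99 ± 1.81 was 7.94 without KI replicate 1 and 0.13 without KI replicate 2. Patrolling monocyte genes were positive for 7 of 10 with a median of 0.30 and 0 lying higher in both KD libraries, with Itgal at 0.85 ± 0.49 and the scavenger receptor Cd36 at -3.01 ± 0.97 on at most 21 counts. Itgal was 0.22 without KD replicate 1 and 1.44 without KD replicate 2. Whether the classical and patrolling lists differ was not tested. Of 8 transcription factors of the branch 5 were positive and 4 lay higher in both KD libraries. Klf4 had 118.7 and 107.4 CPM in KD, against 56.6 and 43.1 CPM in KI (1.18 ± 0.29), and Cebpb 0.75 ± 0.29. Spi1 had 177.2 and 159.2 CPM in KD, against 129.2 and 130.4 CPM in KI (0.37 ± 0.26), and Irf8 0.87 ± 0.33. Spi1 and Irf8 were named after their values were seen. With KI replicate 1 left out, Ly6e was 2.30 and Tfpi -2.82. With KI replicate 2 left out, Ly86 was 1.03, F10 1.27, Klf4 1.10, Cd36 -3.25, Ms4a1 -2.67 and Ly6g -4.93. That fit keeps KI replicate 1, the shallowest library, as the lone KI mouse. Ly6g was -6.04 with KD replicate 1 left out.

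The genes whose profile lay nearest to the median profile of the members, among 9624 named genes of at least 5 CPM on average, were Cib1, Arhgap17, Prcp, Acot11, Rbm47 and Itm2c. Their root mean square distances were 0.0623 to 0.101 on the log2 scale over 4 libraries, and the median profile itself was 0.75 and 0.41 in KD, against 0.04 and -1.07 in KI. Prcp, a lysosomal carboxypeptidase, had 77.7 and 54.1 CPM in KD, against 44.5 and 21.1 CPM in KI. Cib1, a calcium-binding protein, had 31.6 and 23.1 CPM in KD, against 19.0 and 8.90 CPM in KI.

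Markers of other cell types were summed in the same libraries. The 12 tissue macrophage markers summed to 217 and 194 counts in KD and 221 and 235 in KI, or 15.4 and 16.8 CPM in KD, against 51.2 and 27.9 CPM in KI, and Vsig4 had 0 and 0 counts in KD and 0 and 1 in KI. The 9 members summed to 3796 and 4263 CPM in KD, against 2702 and 2056 CPM in KI. In CPM the macrophage sum was thus lower in both KD libraries than in either KI library, and the sum of the members higher. The macrophage counts themselves were alike in all libraries, so their contrast in CPM comes from the scaling by library size and TMM factor. The highest macrophage sum was in KI replicate 1, the shallowest library with the most counts on silent genes. The 12 neutrophil markers summed to 3684 and 1697 CPM in KD, against 16440 and 17170 CPM in KI. Of these, 11 of 12 lay lower in both KD libraries, against 23.5% of all genes tested, and each of the 12 was detected in each library. The 11 erythroid markers summed to 68.1 and 3.28 CPM in KD, against 487.7 and 485.8 CPM in KI. These 2 lists move with the members in the opposite direction, and their part in the members' values was not tested.

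The 9 dendritic cell markers summed to 107.8 and 42.3 CPM in KD, against 543.2 and 28.1 CPM in KI. KI replicate 1, the library with the high sum, also had the higher KI value of Csf1r, Ccr2, Fcgr1, Adgre1, Cx3cr1, Ms4a6c and F13a1, and the part of such cells was not tested. T and NK cell markers summed to 9.34 and 15.9 CPM in KD, against 61.9 and 50.3 CPM in KI, and B cell markers to 112.7 and 171.0 CPM in KD, against 92.1 and 113.7 CPM in KI. Cd3e alone gave 37.2 CPM of the T and NK cell sum in KI replicate 2. Ighm gave 97.0 and 151.1 CPM of the B cell sum in KD, against 59.6 and 82.5 CPM in KI, while 3 of 4 tested B cell markers were negative. Mast cell, basophil and eosinophil markers summed to 142.1 and 32.5 CPM in KD, against 20.9 and 18.5 CPM in KI, and stroma and endothelium markers to 63.8 and 89.2 CPM in KD, against 96.0 and 47.2 CPM in KI. Prg2 alone gave 102.5 and 14.2 CPM of the mast cell, basophil and eosinophil sum in KD. Pecam1 gave 54.2 and 80.8 CPM of the stroma and endothelium sum in KD, against 35.3 and 36.8 CPM in KI. Of the 6 tested genes of that list 5 were negative. Of 8 genes of leukaemic progenitors 3 were positive, and the sum of the 8 was 1622 and 2394 CPM in KD, against 1083 and 2166 CPM in KI. Mpo made up most of it, with 1397 and 2177 CPM in KD, against 897.1 and 2040 CPM in KI.

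**Figure D4:**
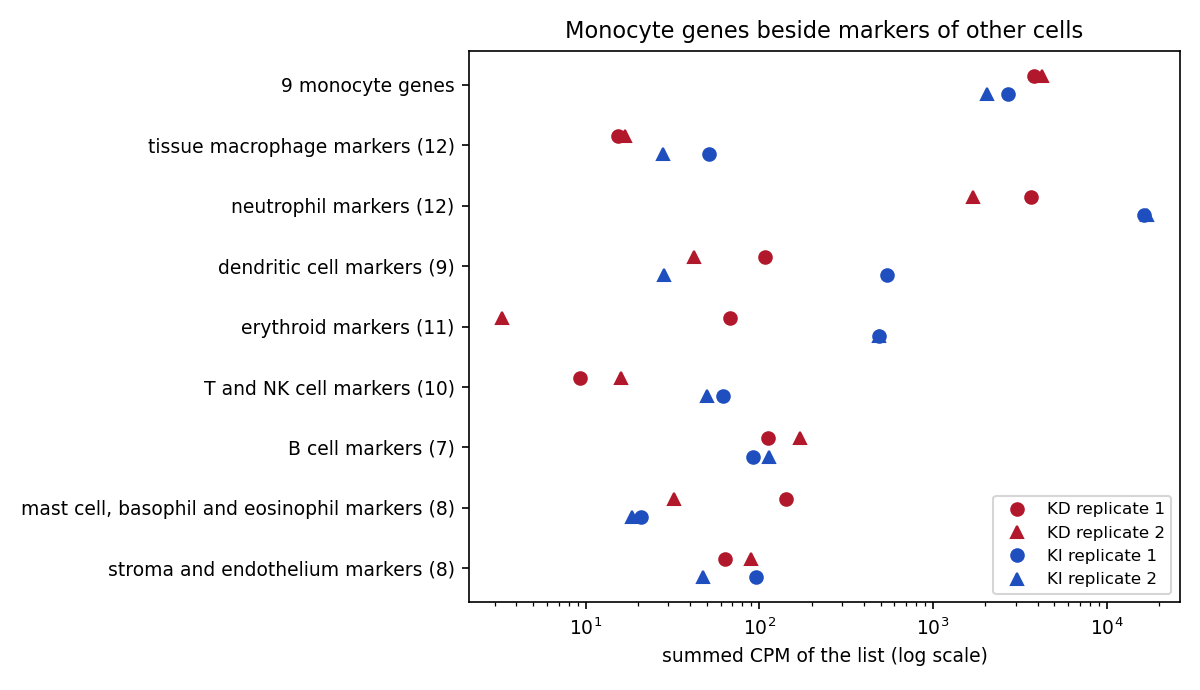
Summed CPM (log axis) of the 9 monocyte genes and of marker lists of other cell types in each library, with red for KD, blue for KI, circles for replicate 1 and triangles for replicate 2, and the number of genes of each list in brackets. Both KD points lie right of both KI points for the monocyte genes and left of them for tissue macrophage markers (15.4 and 16.8 CPM in KD, against 51.2 and 27.9 CPM in KI), and neutrophil markers between 1697 and 3684 CPM in KD and between 16440 and 17170 CPM in KI.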

How the data were processed

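RNA was read from 4 leukaemias, 2 KD and 2 KI, prepared with a stranded mRNA kit per the labels' protocols. The deposited files hold raw counts per Ensembl gene, and the submitters' processing notes list DESeq, HTSeq, SAMtools, TopHat2 2.0.10 and the build GRCm38. Strand setting and annotation release: not given in the sources used here. Summary entries that name no gene hold 93.2% to 97.9% of each total and were left out, and reads in no feature were 63.2% to 88.3% of uniquely aligned reads. The chromatin tables were not used, since their 1616 bin columns name no library.

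Symbols (40254 of 41214 genes) came from the annotation table and coordinates from RefSeq GRCm38.p6. RefSeq places a non-coding gene or pseudogene inside 5 of the 9 members (Csf1r, Adgre1, Cx3cr1, Ms4a6c and F13a1), whose counts may be affected. Levels were not ranked between genes, as exon lengths were not used, and ratios of 2 genes were compared between libraries only.

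Counts were filtered with filterByExpr, scaled by TMM (factors 1.19 and 1.13 in KD, 0.957 and 0.778 in KI) and tested with edgeR 4.0.16 in R 4.3.3 (glmQLFit, glmQLFTest, genotype only, Benjamini-Hochberg at 0.05). A fold change from counts follows the genotype means, so it can differ from a mean of log2 ratios, as for Cx3cr1. DESeq2 1.42.0 and limma 3.58.1 (voom) were alternatives, beside other scalings and filters, a replicate block, leaving out each library, and ratios to Spi1 and Actb chosen after seeing the data. The code of the fits was tested on simulated data with less spread than these libraries, which does not bear on the calls here. The p-values measure the spread between these mice. The members, lists, motifs and tests were chosen with earlier results of these data known. By rule, named genes were Gfi1, the members, the 2 genes of lowest p in each partner list, close paralogues and the 6 nearest profiles, except 1 gene that is not reported here. Tlr4, Fn1, Spi1, Irf8, Fcgr2b, Fcgr4, Syk, Il34, Ccl2, Ccl8, F13b, Vsig4, Xist and Tsix fall outside it and were named after their values were seen.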

Additional observations from a re-analysis of the deposited data

How the results depend on the processing

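Genes called in edgeR over all genes were 0 higher and 0 lower in KD with each other scaling, the 5 CPM filter, limma-voom, the robust prior and the most abundant loci left out. With no low-count filter they were 29 higher and 140 lower, and in DESeq2 5 and 139. The replicate block gave 0 higher and 7 lower and called no member, with 6 members at an unadjusted p under 0.05, all higher in KD, where 4.58% of all genes were higher and 7.55% lower at that level. The samples are tied across genotypes only by the replicate number, with a correlation of same-numbered deviations across genes of 0.269. Same-numbered mice were also alike in Xist, with 6 (KD) and 56 (KI) counts in replicate 1 and 9795 and 6613 in replicate 2. The replicate block thus also parts the libraries by Xist level, and the part of sex was not tested. Leaving out 1 library gave 2 to 284 genes higher and 9 to 3846 lower, in fits that reran the filter and leave a lone mouse.

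The members lying higher in both KD libraries were 5, but 3 with upper quartile factors, with the 5 CPM filter and per Spi1 count, 6 with library size only (Ly6c2 added), and 6 to 8 when a library was left out. The share of all genes lying higher moved too. It was 14.5% in the main fit, 11% with upper quartile factors and 14.1% with the 5 CPM filter. With library size only it was 42.3%, and with a library left out 21.6% to 38.7%. Those lying lower were 0, or 0 to 1 when a library was left out (Fcgr1, without KD replicate 1, where 35.4% of all genes lay lower). The median of the members ran from 0.63 to 1.75 when a library was left out. Cd14, Ms4a6c and F13a1 kept a positive value and separated genotypes in each setting run. The replicate block, limma-voom and the robust prior kept the scaling of the main fit. Leaving out a library removes a value that had to separate. Those settings could thus hardly undo a separation, unlike the other scalings, the filters and the ratios. Fcgr1 turned to -0.045 with upper quartile factors, -0.041 with the 5 CPM filter, -0.18 in limma-voom, -0.27 with the replicate block, -0.66 per Spi1 and -0.44 per Actb count, and ran from -1.16 (without KD replicate 1) to 0.77. When each library was left out, Ccr2 ran from -0.26 (without KI replicate 2) to 2.89 and Ly6c2 from -0.10 (without KD replicate 2) to 1.16. Among partners, the lowest values were without KI replicate 2 for Ms4a6b (-0.39 to 2.095) and Tlr4 (-0.081 to 3.79), and without KD replicate 1 for Adgre4 (-0.60 to 5.32). Without KD replicate 1 Ms4a6b was -0.05. Ly6c1 ran from -1.27 to 0.20, the highest without KD replicate 1. The cause was not tested. With 2 mice per genotype, a member that was not called may still differ.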
